A study of Mus musculus with 10 samples.

Results

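The 9 genes described here make, remove or help to make superoxide and hydrogen peroxide: the oxidase subunits Nox4 and Cyba, the superoxide dismutases Sod1, Sod2 and Sod3, the catalase Cat, and the glutathione peroxidases Gpx1, Gpx3 and Gpx4. They were chosen by symbol, and each was read from its probe set with the highest mean signal over all 10 arrays, 9 of 18193 genes on the array. The 9 genes had 20 probe sets in all, and all 9 passed the filter on low signals that left 11032 genes for testing. Nox4 passed it only through its signals in wild-type liver.

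Liver RNA of mice of a mixed 129/B6 background was hybridised to Affymetrix arrays, 1 array per RNA. Aged Gnmt knockout mice gave hepatocellular carcinoma (HCC) from an 18-month male and a 14-month female, dysplastic nodule tissue from a 21-month female, and liver adjacent to each of these 3 lesions. Young Gnmt knockout liver was hybridised as 1 male and 1 female pool of 3 mice each at 11 weeks, and wild-type liver as 1 male and 1 female pool of 3 mice each at the same age. Gnmt encodes glycine N-methyltransferase, a liver enzyme that consumes S-adenosylmethionine. There were no aged wild-type livers among these samples, so every lesion and every aged liver carried the knockout. Pools leave out the spread between single mice, and each lesion was matched to the adjacent liver that shared its sex and age in the labels.

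Superoxide is formed by leakage from mitochondrial respiration and, on purpose, by NADPH oxidases. Nox4 is an NADPH oxidase that needs the membrane partner Cyba, also called p22phox, and releases mostly hydrogen peroxide. Superoxide dismutases turn superoxide into hydrogen peroxide: Sod1 is the copper and zinc enzyme of the cytosol, Sod2 the manganese enzyme of mitochondria and Sod3 a secreted copper and zinc enzyme. Peroxide is then removed by catalase in peroxisomes, which are abundant in hepatocytes, and by glutathione peroxidases. Gpx1 is the main selenium-dependent peroxidase of the cytosol, Gpx3 is secreted into plasma, and Gpx4 reduces lipid hydroperoxides in membranes and restrains ferroptosis.

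Signals were linear intensities as deposited, with a trimmed mean of 500 on every array, and median signals ran from 77.4 to 102.4. Gnmt was at 190 and 245.2 in the young knockout pools and at 11.7 to 329.4 in aged knockout tissue, against 59472.6 and 52139.9 in wild-type pools. The summed signal of 10 measured hepatocyte markers was 389393.8 to 535328.5 in aged knockout tissue, 447666.2 to 519009.7 in young knockout pools and 510320 to 568438.5 in wild-type pools. The ratio of the hybridisation controls BioC and BioB, read from their 3' probe sets, was 1.45 to 1.84 on the aged arrays and 3.9 to 5.09 on the young ones. The wild-type female pool stood apart in clock genes, with the clock activator Arntl at 911.5, against 22.2 to 85.2 in the other young pools. The tissue of the aged male stood apart in neutrophil markers, with summed signals of 16552.7 in the HCC and 16154.1 in the adjacent liver, against 851.7 to 2214.9 on the other 8 arrays. Much of these sums came from S100a8, at 8787.7 in the HCC and 10075.7 in the adjacent liver, and S100a9, at 4580.6 and 3417.3. The markers Elane, Mpo, Cxcr2 and Csf3r did not exceed the other arrays in both of these tissues.

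The sequences upstream of Nox4 and Gpx4 are shown because these were the members that passed the test between genotypes. Both are the RefSeq sequence of GRCm38.p6 over the 250 bases before an annotated start, 5′ to 3′, with capitals marking the GC box GGGCGG on either strand. For Gpx4, which has 4 annotated starts, the window of the second is given. The Nox4 window is chr7:87246399-87246648 on the plus strand and the Gpx4 window is chr10:80053315-80053564 on the plus strand.
Nox4: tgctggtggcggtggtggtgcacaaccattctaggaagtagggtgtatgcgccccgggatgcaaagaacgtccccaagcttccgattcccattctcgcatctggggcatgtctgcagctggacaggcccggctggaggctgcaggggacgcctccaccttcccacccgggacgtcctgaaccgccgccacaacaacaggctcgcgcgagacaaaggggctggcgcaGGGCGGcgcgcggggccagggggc
Gpx4: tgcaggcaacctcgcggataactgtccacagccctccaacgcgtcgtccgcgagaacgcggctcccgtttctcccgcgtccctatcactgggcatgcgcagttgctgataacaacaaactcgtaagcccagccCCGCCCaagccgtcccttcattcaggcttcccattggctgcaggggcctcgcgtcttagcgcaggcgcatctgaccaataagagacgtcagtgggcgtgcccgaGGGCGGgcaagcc
The Nox4 window holds 1 GC box and the Gpx4 window 2, while the window of the first Gpx4 start holds 0. Windows were found for 8 of the 9 members, not for Sod3. A GC box occurred in at least 1 window of 7 of these 8 genes, and in 32.7% of 32851 windows of all genes. The core of the antioxidant response element, TGACNNNGC on either strand, occurred upstream of Sod1 alone among the 8, and in 10.2% of all windows. The CCAAT box, read as CCAAT on either strand, occurred for 5 of the 8 members and in 33.8% of all windows. Member counts are per gene, over all of its windows, and the shares are per window, so they are not like measures.

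The comparison of knockout with wild-type liver at 11 weeks asks how these genes differed without Gnmt in young liver. Nox4 was lower and Gpx4 was higher in knockout liver, and the other 7 members did not pass the test. Of the 9 members 2 passed at an adjusted p below 0.05, against 160 of 11032 genes, which is 1.45%. Nox4 passed the filter on low signals only through its wild-type signals, so its call cannot be set beside this share on equal terms. The higher call was 1 member, against 0.707% of all genes, and the lower call 1 member, against 0.743%. An unadjusted p below 0.05 was reached by 2 members, Nox4 and Gpx4, and by 19.5% of all genes. The median log2 difference was -0.01 over the 9 members and -0.05 over all genes, and the median absolute difference was 0.37 over the members and 0.33 over all genes.

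Nox4 had signals of 76.2 in the knockout female pool and 206.4 in the knockout male pool, against 564.8 in wild-type females and 2205.1 in wild-type males. Both knockout pools lay below both wild-type pools. Nox4 fell by 2.98 on the log2 scale with a standard error of 0.28, a 7.89-fold difference after the added constant of 16.8 (limma, adjusted p = 0.0139, n = 2 pools each). The difference was -2.64 between the female pools and -3.32 between the male pools. The second Nox4 probe set fell by 2.56 on the log2 scale with a standard error of 0.44 (limma, adjusted p = 0.0489). Its mean log2 value lay below the filter on low signals, which was not applied to it. Nox4 signals were 31 to 163.6 in the 6 aged knockout tissues, so all 8 knockout arrays, at 31 to 206.4, lay below both wild-type pools. The share of all genes that parted the young pools, or all knockout arrays from wild-type pools, was not counted.

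Gpx4 had signals of 24322.2 in the knockout female pool and 35246.2 in the knockout male pool, against 10865 in wild-type females and 9963.2 in wild-type males. The pools did not overlap between genotypes. Gpx4 rose by 1.49 on the log2 scale with a standard error of 0.21, 2.81-fold (limma, adjusted p = 0.0348, n = 2 pools each). The difference was 1.16 in females and 1.82 in males. The second Gpx4 probe set rose by 1.28 on the log2 scale (limma, adjusted p = 0.0325). The 6 aged knockout tissues had Gpx4 signals of 19434.7 to 32491, so all 8 knockout arrays lay above both wild-type pools. As for Nox4, the share of all genes with pools or arrays parted in this way was not counted. The probe set used for Gpx4 is of a type that can share probes with related sequences.

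The calls of Nox4 and Gpx4 rest on 1 residual degree of freedom and on the spread shared across genes. Both were lost when the spread was taken from all groups, with all 10 arrays in the fit (limma, adjusted p = 0.101 for Nox4 and 0.177 for Gpx4) and with 1 pool left out of it, so the loss cannot be put down to a pool: without the wild-type female, wild-type male, knockout male or knockout female pool, the adjusted p of Nox4 was 0.223, 0.296, 0.74 and 0.327 and that of Gpx4 was 0.312, 0.37, 0.791 and 0.355, in that order. Both calls were also lost without the intensity trend (limma, adjusted p = 0.193 for Nox4 and 0.211 for Gpx4) and without the sex term (0.154 for Nox4 and 0.101 for Gpx4), and that of Gpx4 with the mean over its probe sets (adjusted p = 0.0552). Their log2 differences kept their sign in each fit that left out a pool, at -3.2 to -2.76 for Nox4 and 1.18 to 1.8 for Gpx4.

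Markers of other cells moved with genotype. The summed signal of 12 endothelial markers was 5894.9 to 6015.7 in knockout pools and 11126.3 to 14644.5 in wild-type pools, and each of the 12 was above the added constant of 16.8 in every young pool. Of the 11 endothelial markers tested, 10 had negative differences and 8 an unadjusted p below 0.05, against 19.5% of all genes. The test was passed by 2, against 0.743% of all genes called lower: Stab2, a scavenger receptor of sinusoidal endothelium, fell by 1.55 (limma, adjusted p = 0.0401) and Oit3 fell by 1.35 on the log2 scale (limma, adjusted p = 0.0496). The HCC of the male had the highest endothelial sum of all arrays, 16152.4, with a Nox4 signal of 138.1. In that HCC the 2 called markers stayed below both wild-type pools. Stab2 was at 867.8, against 2757.7 and 1921.6, and Oit3 at 671.1, against 1110.6 and 757.3. The summed signal of 15 Kupffer cell and macrophage markers was 17877.8 to 18296.5 in knockout pools and 21346.6 to 31863.7 in wild-type pools, and 0 of the 14 tested passed in limma, with 6 at an unadjusted p below 0.05, against 19.5% of all genes. Among erythroid markers, 1 of 2 tested passed, Alas2, the first enzyme of haem synthesis in red cells, which fell by 1.48 (limma, adjusted p = 0.0399). Alas2 overlapped between genotypes and was the higher in males of each. It was at 266.4 in the knockout female and 2236 in the knockout male pool, against 812 in wild-type females and 6014.2 in wild-type males. The ratio of the 3' to the 5' probe set of Actb, a measure of RNA integrity, was 3.18 and 3.38 in knockout pools and 2.62 and 2.6 in wild-type pools. The part of these shifts in the Nox4 and Gpx4 differences was not tested. In such bulk samples fewer cells of a type and less RNA per cell cannot be told apart.

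**Figure D1:**
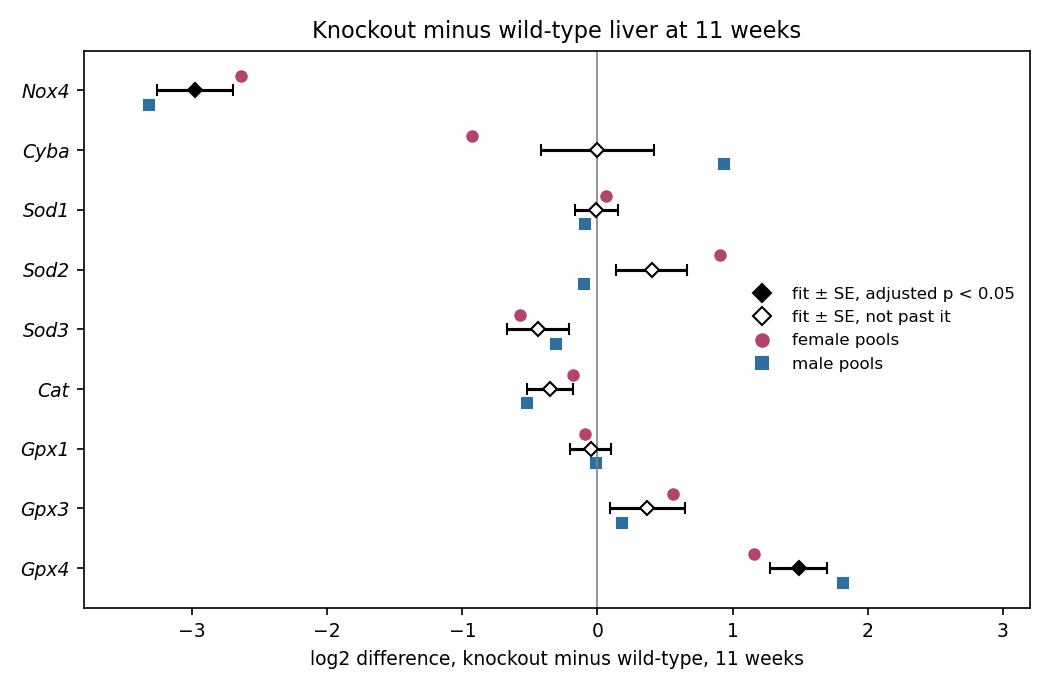
Log2 differences of the 9 members between knockout and wild-type liver at 11 weeks, from the fit with sex as a term (diamonds, with bars of 1 standard error; filled where the adjusted p was below 0.05) and between the pools of each sex (circles female, squares male). Nox4 lies at -2.98 and Gpx4 at 1.49, and the sexes part to either side of 0 for Cyba.

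Cyba, the partner of Nox4, had signals of 293.5 in the knockout female pool and 794.5 in the knockout male pool, against 575.7 in wild-type females and 406.4 in wild-type males. The knockout pool was the lower in females and the higher in males, by -0.93 and 0.94 on the log2 scale, and the fitted difference was 0 ± 0.42 (SE; limma, adjusted p = 0.998). The sexes' differences differed by -1.87 ± 0.6 (SE; unadjusted p = 0.018, adjusted p = 1 in limma), with the spread taken from the aged tissues. No member passed in that test of genotype by sex in limma, and neither did any of 11032 genes (0%). Cyba was the 1 member with an unadjusted p below 0.05, against 342 of all genes (3.1%).

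The superoxide dismutases did not pass. Sod1 had signals of 34003.3 in the knockout female pool and 31186.3 in the knockout male pool, against 32575 in wild-type females and 33143.6 in wild-type males, and these overlapped. The fitted Sod1 difference was -0.01 ± 0.16 (SE) on the log2 scale. Sod2 was at 17404.9 in the knockout female pool and 10888.9 in the knockout male pool, against 9283.8 in wild-type females and 11663.2 in wild-type males. The knockout female pool alone was high, and the fitted Sod2 difference was 0.4 ± 0.26 (SE; limma, adjusted p = 0.443). Another Sod2 probe set, of mean signal 2169.7, had a fitted difference of -0.6 ± 0.22 (SE; limma, adjusted p = 0.21), so the probe sets of Sod2 disagreed in sign. Sod3 was at 841.9 in the knockout female pool and 630.2 in the knockout male pool, against 1260.5 in wild-type females and 787.2 in wild-type males. It was the lower in knockout within each sex, with a fitted difference of -0.44 ± 0.23 (SE; limma, adjusted p = 0.342).

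Catalase and the other peroxidases did not pass either. Cat had signals of 34461 in the knockout female pool and 26087.7 in the knockout male pool, against 39027.1 in wild-type females and 37483.5 in wild-type males. The knockout pools lay below both wild-type pools, a gap whose share over all genes was not counted. The log2 differences were -0.18 in females and -0.52 in males, and the fitted difference was -0.35 ± 0.17 (SE; limma, adjusted p = 0.321). The second Cat probe set gave -0.6 ± 0.16 (SE; limma, adjusted p = 0.126). Gpx1 was at 49273.4 in the knockout female pool and 46071.5 in the knockout male pool, against 52478.8 in wild-type females and 46312.3 in wild-type males, a difference of -0.05 ± 0.15 (SE). Gpx3 was at 274.9 in the knockout female pool and 395 in the knockout male pool, against 181.7 in wild-type females and 347.6 in wild-type males, a difference of 0.37 ± 0.28 (SE; limma, adjusted p = 0.519).

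Among genes that feed or work beside these enzymes, 2 passed between genotypes, both lower in knockout. Of all genes 0.743% were called lower and 1.45% in either direction, and so few calls are no result about the groups as a whole. Gclc, the catalytic subunit of the rate-limiting enzyme of glutathione synthesis, averaged 3943.2 in knockout and 10182.1 in wild-type pools and fell by 1.37 on the log2 scale (SE 0.2; limma, adjusted p = 0.0348), the 1 of 9 tested genes of glutathione synthesis and recycling to pass. Xdh, xanthine dehydrogenase, whose oxidase form releases superoxide and peroxide, averaged 759 in knockout and 3177.2 in wild-type pools and fell by 2 on the log2 scale (SE 0.32; limma, adjusted p = 0.0424), the 1 of 16 tested peroxide-forming oxidases to pass. None of the tested NADPH oxidase partners (6), other glutathione peroxidases (2), peroxiredoxins and thioredoxins (16), genes of selenocysteine supply (9), copper delivery (9) or peroxisome assembly (13) passed in limma. At an unadjusted p below 0.05, reached by 19.5% of all genes, the counts of these groups were 1, 1, 4, 2, 3 and 0 in that order. The count was 8 of 16 for the peroxide-forming oxidases, of which 13 had negative differences, and 2 of 9 for glutathione synthesis and recycling, of which 6 had negative differences. The median log2 difference was -0.44 for the oxidase partners, -0.35 for the peroxide-forming oxidases, -0.29 for glutathione synthesis and recycling, 0.38 for the other glutathione peroxidases, 0.16 for peroxisome assembly, 0.14 for peroxiredoxins and thioredoxins, -0.13 for selenocysteine supply and -0.1 for copper delivery, beside -0.05 for all genes.

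Females were compared with males at 11 weeks with genotype as a term. No member passed, against 30 of 11032 genes or 0.272%, and 2 members had an unadjusted p below 0.05, as did 9.21% of all genes. Nox4 was the lower in females within each genotype, with log2 differences of -1.26 in knockout and -1.93 in wild-type pools, and the fitted difference was -1.6 ± 0.28 (SE; limma, adjusted p = 0.139). The same order held in aged knockout tissue, where Nox4 was at 31 to 54.9 on the 4 arrays of females and at 138.1 and 163.6 on the 2 arrays of the male. Gpx3 was the lower in females with log2 differences of -0.5 in knockout and -0.88 in wild-type pools, with a fitted difference of -0.69 ± 0.28 (SE; limma, adjusted p = 0.536).

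Adjacent liver of the 3 aged knockout mice was compared with the 2 young knockout pools, with sex as a term. Age, pooling, the neighbouring lesion and the hybridisation controls that parted young from aged arrays cannot be told apart here. Clock genes also differed among these arrays, and their part was not tested. No member passed in limma, and neither did any other gene (0 of 11032, 0%). An unadjusted p below 0.05 was reached by 3 of the 9 members, Gpx3, Sod3 and Cyba, against 1355 of all genes (12.3%). Gpx3 was at 508.5 in the 21-month female, 637 in the 14-month female and 2710.2 in the 18-month male, against 274.9 and 395 in the young knockout pools. All 3 aged livers lay above both pools, and the difference was 1.74 ± 0.41 (SE; limma, adjusted p = 0.386). Sod3 was at 1330.2 in the 21-month female, 1890.8 in the 14-month female and 2201.7 in the 18-month male, against 841.9 and 630.2 in the young knockout pools. These did not overlap, with a difference of 1.28 ± 0.3 (SE; limma, adjusted p = 0.386). Cyba was at 516.5, 764.2 and 1412.2 in the same order of mice, against 293.5 and 794.5 in the young knockout pools, which overlapped, with a difference of 0.95 ± 0.27 (SE; limma, adjusted p = 0.386). The other 6 members had differences of -0.58 for Nox4 to 0.51 for Sod2. Among them Gpx4 was at 22404.6, 19434.7 and 23650.2 in the same order of mice, below both young knockout pools, at 24322.2 and 35246.2. Its difference was -0.37 ± 0.22 (SE; limma, adjusted p = 0.5). The second Gpx4 probe set did not overlap either, at 21286.9 to 23411.1 against 23576.1 and 32147.4. The share of all genes without overlap was not counted.

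None of the genes around these enzymes passed with age either. All 13 tested genes of peroxisome assembly had negative differences, with a median of -0.46 beside 0.08 for all genes, and 4 of them had an unadjusted p below 0.05 in limma. Of the 6 oxidase partners 4 had positive differences, the phagocyte genes Cybb, Ncf1, Ncf4 and Rac2, named after their values were seen, each with an unadjusted p below 0.05, and the median was 1.06. Kupffer cell and macrophage markers moved with them, with positive differences in 13 of 14 and sums of 16992.7 to 63586.2 in adjacent liver, against 17877.8 to 18296.5 in young knockout pools. Neutrophil markers, whose cells share these phagocyte genes, had positive differences in 6 of 6, a median of 1.41 and 3 with an unadjusted p below 0.05, against 12.3% of all genes, with sums of 1292.9 to 16154.1 in adjacent liver, against 851.7 to 1470.4 in young knockout pools. The highest macrophage sum, that of the male, included Cd14 at 28785.9. The part of either cell type was not tested.

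**Figure D2:**
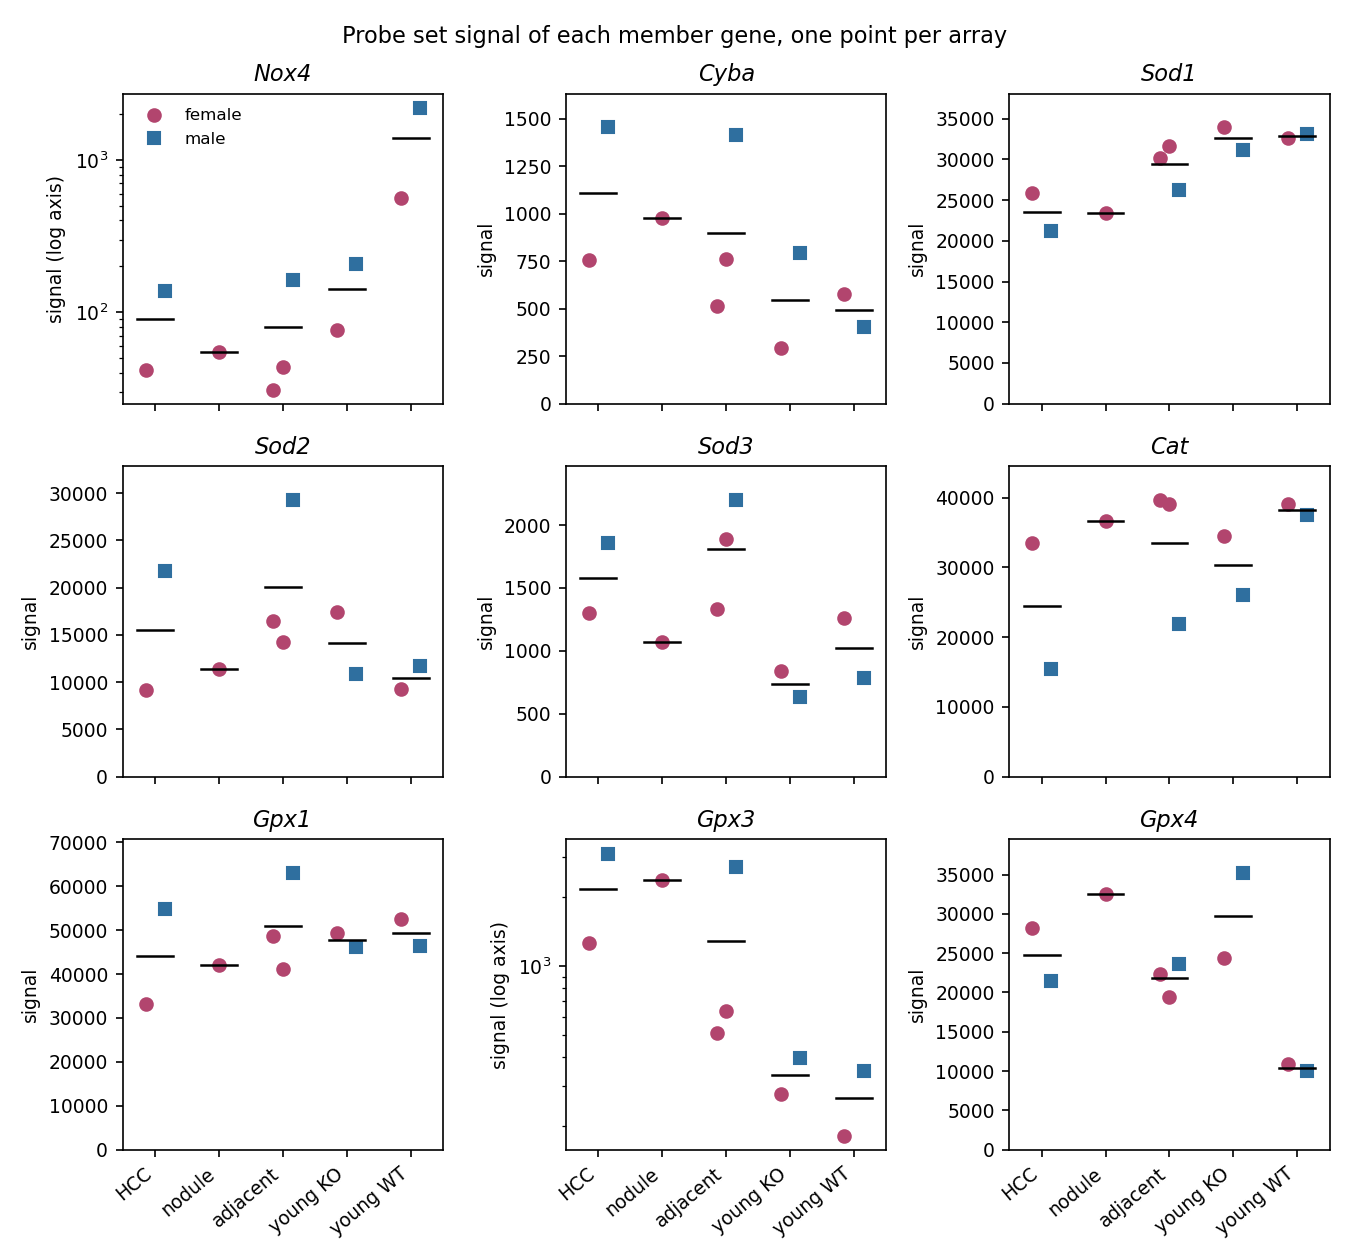
Signal of each member on every array (circles female, squares male; horizontal bars are group means; the axes of Nox4 and Gpx3 are logarithmic, the others start at 0). Nox4 lies at or below 206.4 and Gpx4 at or above 19434.7 on all 8 knockout arrays, and Gpx3 lies at or above 508.5 on all 6 arrays of aged tissue. The share of all genes with arrays parted likewise was not counted.

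In order of group means, Nox4 ran upward through nodule (54.9), adjacent liver (79.4), HCC (89.8), young knockout (141.3) and wild-type liver (1384.9), and wild-type liver alone did not overlap with its neighbour. Gpx4 ran downward through the nodule (32491), young knockout liver (29784.2), HCC (24823.1), adjacent liver (21829.8) and wild-type liver (10414.1). Again wild-type liver alone did not overlap with its neighbour. Adjacent liver, at 19434.7 to 23650.2, also lay below young knockout liver, at 24322.2 and 35246.2, and below the nodule. The share of all genes with groups apart was not counted. Gpx3 ran downward through nodule (2367), HCC (2182) and adjacent liver (1285.2), which overlapped among neighbours, to young knockout (335) and wild-type liver (264.6), which overlapped with each other and not with the aged tissues. Sod1 was lowest in nodule (23375.2) and HCC (23544.8), and HCC did not overlap with adjacent liver (29380.3), which overlapped with young knockout liver (32594.8), as that did with wild-type liver (32859.3). Sod3 was highest in adjacent liver (1807.6) and lowest in young knockout liver (736), and Cyba was highest in HCC (1106.8) and lowest in wild-type liver (491). The group means of Sod2 were between 20028.4 in adjacent and 10473.5 in wild-type liver, those of Cat between 24448 in HCC and 38255.3 in wild-type liver, and those of Gpx1 between 42096.9 in the nodule and 50963.1 in adjacent liver.

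Much of the spread in aged tissue followed the mouse. The 2 arrays of the aged male held Sod2 at 21805.7 and 29315, above the range of 9157.2 to 16501.8 on the 4 arrays of aged females. Cat was at 15380.9 and 21876.5 in the male's tissue and at 33515.2 to 39705.9 in the females', which did not overlap. Gpx1 was at 54937.7 and 63111.4 in the male's tissue and at 33233 to 48583.9 in the females'. Cyba was at 1412.2 and 1458 in the male's tissue, against 516.5 to 977.1 in the females'. How many of all genes parted the male's arrays from the females' was not counted. The same 2 arrays had Kupffer cell and macrophage sums of 64146.9 in HCC and 63586.2 in adjacent liver, against 16992.7 to 35423.2 on the other aged arrays, and the neutrophil sums given above. Much of the contrast in macrophage sums came from 1 marker, Cd14. It was at 23675.4 in the male's HCC and 28785.9 in its adjacent liver, against 326.4 to 1559.1 on the other aged arrays. The part of these cells in the member values was not tested, and with 1 aged male, sex, age, clock gene levels and the single mouse cannot be told apart.

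Lesions were compared with the adjacent liver of the same mouse, first the 2 HCC and then all 3 lesions. No member passed for HCC, against 9 of 11032 genes or 0.0816% (0.0635% higher and 0.0181% lower), and none had an unadjusted p below 0.05 in limma, against 7.65% of all genes. No member passed over the 3 lesions, against 1 gene or 0.00906%, and 2 members, Sod2 and Gpx3, had an unadjusted p below 0.05, against 9.93% of all genes. The median log2 difference over the 3 lesions was -0.24 for the members and 0 for all genes. Markers of other cells moved with these differences. The summed signal of 10 hepatocyte markers was 528206.8 in the male HCC, 405865.8 in the female HCC and 389393.8 in the nodule, against 530582.2, 471276 and 535328.5 in the adjacent livers of the same mice, and 8 of the 10 had negative differences, 3 with an unadjusted p below 0.05. Of 12 stellate cell and fibroblast markers 7 had positive differences over the 3 lesions, and 5 had an unadjusted p below 0.05, against 9.93% of all genes. For HCC alone it was 6, against 7.65% of all genes. Their sums were 25905.5 in the male HCC, 20778.4 in the female HCC and 16735.3 in the nodule, against 26498.4, 16383.7 and 12884.6 in the adjacent livers. All 11 tested endothelial markers had positive differences, 1 with an unadjusted p below 0.05. The part of these cells in the member differences was not tested.

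On the probe sets used, the signals of the 3 dismutases, catalase and Gpx1 were lower in each of the 3 lesions than in its adjacent liver. This was not so on all probe sets, and the share of all genes lower in all 3 lesions was not counted. The second abundant Sod1 probe set, of mean signal 28120.6, gave 28309.8 in the female HCC and 27987.9 in its adjacent liver. The second Cat probe set gave 29318.3 in the nodule and 27505.9 in its adjacent liver, and the second Sod3 probe set gave 480.1 in the nodule and 442 in its adjacent liver. Of the 3 other Sod2 probe sets, the 2 of higher signal gave lower values in all 3 lesions and the dimmest a log2 difference of 0.16 in the nodule. Under quantile normalization the nodule difference was 0.13 for Cat and 0.03 for Gpx1. Sod2 was at 21805.7 in the male HCC, 9157.2 in the female HCC and 11406.8 in the nodule, against 29315, 14268.5 and 16501.8 in the adjacent livers of the same mice. Every lesion lay below its own adjacent liver, but the groups overlapped because the male's tissue was high. The Sod2 difference was -0.53 ± 0.18 (SE, n = 3 pairs; limma, adjusted p = 0.417). Sod1 was at 21161.3 in the male HCC, 25928.3 in the female HCC and 23375.2 in the nodule, against 26283.5, 31646.9 and 30210.4 in their adjacent livers. On this probe set no lesion reached the lowest adjacent liver, and the Sod1 difference was -0.32 ± 0.18 (SE; limma, adjusted p = 0.612). On the second abundant Sod1 probe set the female HCC exceeded the lowest adjacent liver, and the difference was -0.24 ± 0.2 (SE; limma, adjusted p = 0.731). A dim Sod1 probe set, of mean signal 274.8, gave 0.17 ± 0.24 (SE; limma, adjusted p = 0.855). The differences were -0.36 ± 0.18 for Sod3, -0.28 ± 0.2 for Cat and -0.24 ± 0.19 for Gpx1 (SE; limma, adjusted p = 0.565, 0.68 and 0.723 in that order).

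Gpx3 was at 3104.5 in the male HCC, 1259.5 in the female HCC and 2367 in the nodule, against 2710.2, 637 and 508.5 in the adjacent livers of the same mice. It was higher in each lesion than in its own adjacent liver, by 0.19, 0.97 and 2.18 on the log2 scale. The difference over 3 pairs was 1.11 ± 0.36 (SE; limma, adjusted p = 0.396), and over the 2 HCC, without the nodule, it was 0.58 ± 0.3 (SE; limma, adjusted p = 0.74). Gpx4 was at 21492.4 in the male HCC, 28153.7 in the female HCC and 32491 in the nodule, against 23650.2, 19434.7 and 22404.6 in their adjacent livers. It was the higher in the lesions of both females and the lower in that of the male, with a difference of 0.31 ± 0.22 (SE; limma, adjusted p = 0.684). The second Gpx4 probe set gave 0.1 ± 0.27 (SE; limma, adjusted p = 0.932). Nox4 was at 138.1, 41.6 and 54.9 in the lesions, against 163.6, 43.6 and 31 in adjacent liver, a difference of 0.11 ± 0.5 (SE). Cyba was at 1458, 755.7 and 977.1 in the lesions, against 1412.2, 764.2 and 516.5 in adjacent liver, and the nodule pair alone moved by more than 0.05 on the log2 scale, by 0.9.

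**Figure D3:**
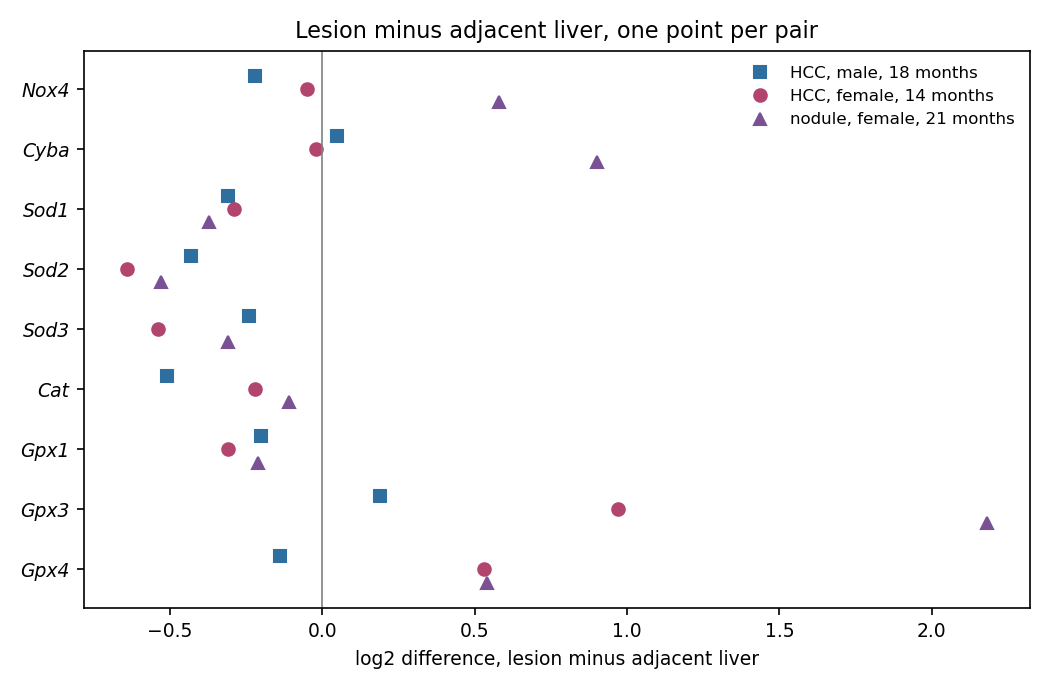
Log2 differences of the 9 members between each lesion and the adjacent liver of the same mouse (squares male HCC, circles female HCC, triangles nodule). On the probe sets drawn, Sod1, Sod2, Sod3, Cat and Gpx1 lie below 0 in all 3 pairs, and Gpx3 lies above 0 in all 3, at 2.18 in the nodule. The share of all genes on the same side of 0 in all 3 pairs was not counted. Second probe sets of Sod1, Cat and Sod3 lie above 0 in 1 pair each (0.02, 0.09 and 0.12), and under quantile normalization so do Cat and Gpx1 in the nodule (0.13 and 0.03).

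The nodule was a single array set against a single array, so its differences have no replicate check. Of the 9 members, Gpx3 alone differed at least 2-fold, at 2367 in the nodule and 508.5 in the adjacent liver, a log2 difference of 2.18. Across all genes 1288 of 11032, or 11.7%, differed at least 2-fold, with 7.81% of all genes higher and 3.86% lower. Some genes around these enzymes also differed at least 2-fold, and those named here were chosen after their values were seen. Gpx2, the glutathione peroxidase of gut epithelium, had a signal of 3583 in the nodule and 38.6 in its adjacent liver. The glutathione genes were high together: Gclc was at 33594.4 in the nodule and 2213.7 in the adjacent liver, and 4 of the 9 tested genes of glutathione synthesis and recycling were at least 2-fold higher and 0 at least 2-fold lower, with a median log2 difference of 0.99 beside 0.02 for all genes. Gsr, glutathione reductase, was at 8501.7 in the nodule and 1482.9 in the adjacent liver. Gss, glutathione synthetase, was at 5451.6 in the nodule and 1778.2 in the adjacent liver. Slc7a11, the cystine importer, which did not pass the filter on low signals, was at 5090.3 in the nodule and 23.8 in the adjacent liver.

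Other groups were counted in the nodule in the same way. Of 16 peroxide-forming oxidases, 4 were at least 2-fold higher and 1 lower, led by Maoa, monoamine oxidase A, at 5858.9 in the nodule and 856.4 in the adjacent liver. Of 6 oxidase partners, 1 was at least 2-fold higher, Cybb, the oxidase subunit of phagocytes, at 1546.3 in the nodule and 338.6 in the adjacent liver. Kupffer cell and macrophage markers moved with Cybb, with 6 of 14 at least 2-fold higher, 1 lower and a summed signal of 35423.2 in the nodule and 16992.7 in the adjacent liver. Of 12 stellate cell and fibroblast markers 5 were at least 2-fold higher and 0 at least 2-fold lower. Their median log2 difference was 0.83, with 9 positive and 3 negative: Hgf at -0.96, Dcn at -0.36 and Reln at -0.28. The largest difference was that of the collagen gene Col1a1, at 809.4 in the nodule and 21.8 in the adjacent liver. The latter signal was near the added constant. All 10 hepatocyte markers were lower in the nodule, with a median of -0.35, and their sum of 389393.8 was the lowest of all arrays. The part of these cells in the nodule values was not tested. None of 9 genes of selenocysteine supply and none of 13 genes of peroxisome assembly differed 2-fold, with medians of -0.15 and -0.1. Of 9 genes of copper delivery, 1 was at least 2-fold lower, and of 16 peroxiredoxins and thioredoxins 2 were higher and 1 lower.

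**Figure D4:**
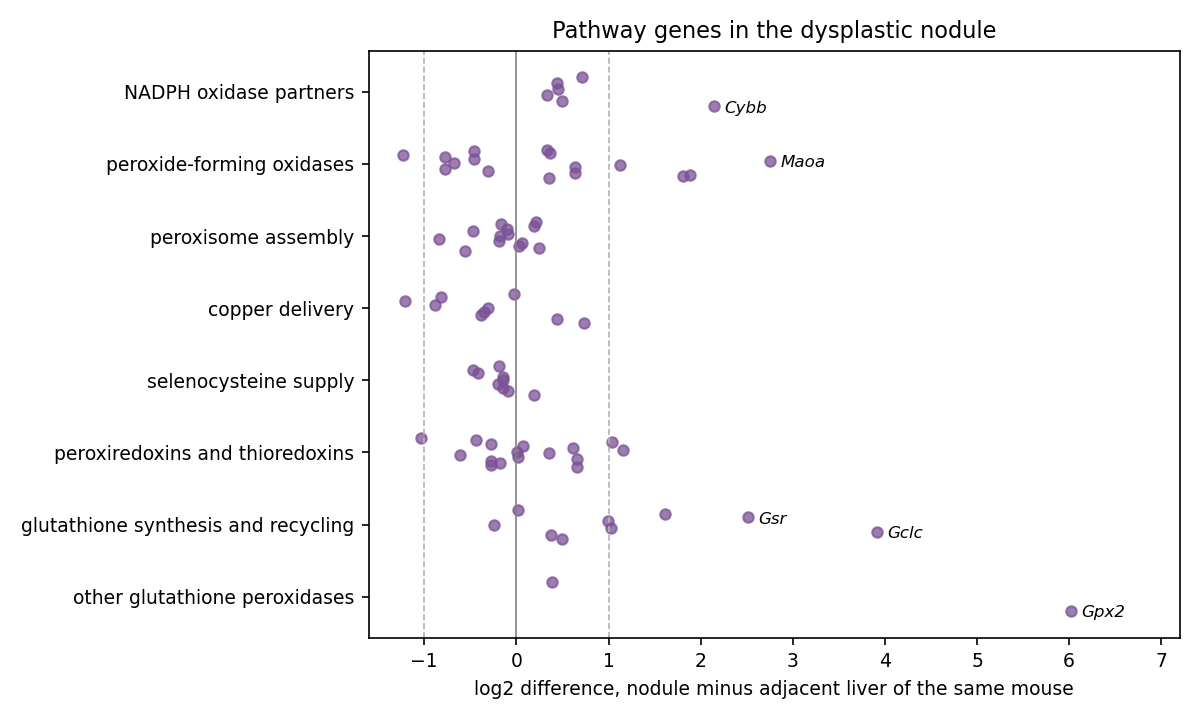
Log2 differences between the nodule and its adjacent liver, 1 array a side, for each tested gene of 8 pathway lists (dashed lines mark a 2-fold difference; genes differing at least 4-fold are named). Gpx2, Gclc, Gsr, Maoa and Cybb lie farthest to the right, and selenocysteine supply and peroxisome assembly lie within the dashed lines.

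The members did not vary as a block over the 10 arrays. The Pearson correlations of log2 signals, which share groups and mice and are given as descriptions, were lowest for Sod1 with Gpx3 (-0.93), Cyba with Sod1 (-0.81) and Nox4 with Gpx4 (-0.74), and highest for Cyba with Gpx3 (0.84) and Sod2 with Gpx1 (0.72). By the same measure over the same 10 arrays, the genes most like Nox4 were Fbxo9 (0.942) and C8b (0.936), those most like Gpx4 were Lrp11 (0.959) and Nhp2 (0.944), and those most like Gpx3 were Cyrib (0.984) and Tmem176a (0.971). Cyba was most like Ms4a6d (0.95) and Ofd1 (0.945). Sod1 was most like Cyp2c23 (0.967) and Hykk (0.96), Sod2 most like Noct (0.963) and Rpl14 (0.946), and Sod3 most like Pogz (0.96) and Arap1 (0.952). Cat was most like Rmdn2 (0.975) and Dusp11 (0.97), and Gpx1 most like Mrps12 (0.962) and Rnase4 (0.945).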

How the data were processed

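Signals of 10 arrays were used as deposited. Per the submitters' processing notes, the authors computed them with GCOS, whose settings are not given in the sources used here. The deposited values are intensities on a linear scale, and the mean after trimming 2% at each end was 500 on every array. The number of arrays limits the precision, and no depth applies. Of 45101 probe sets, 64 controls were left out, 34945 had 1 gene symbol, of which 34741 matched a RefSeq gene ID, 932 had several and 9211 were not listed.

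A constant of 16.8, equal to the 20th percentile of the whole table, was added before log2 was taken. Each gene was read from its probe set with the highest mean log2 value and kept where that mean exceeded the value of a signal of 91, the median of all values, which left 11032 genes. Whether the means behind this filter and probe set were taken on the log2 or the linear scale was settled after counts of calls had been seen: the genotype comparison called 88 genes with both linear, 194 with a linear choice of probe set, 69 with a linear filter and 160 as reported, with Nox4 and Gpx4 called in all 4 and the member probe sets the same. The members and gene lists were chosen with earlier results of these data known.

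Linear models were fitted with limma 3.58.1 in R 4.3.3 with an intensity trend, with Benjamini-Hochberg adjustment across all 11032 genes and calls at an adjusted p below 0.05. Genotype was fitted with sex as a term (1 residual degree of freedom), and lesions with the mouse as a term. The mouse was taken from shared sex and age, since the labels give no mouse numbers. The test of genotype by sex took its spread from the aged tissues. The p-values measure the spread between these RNA samples. The fits were tested on simulated data. Genes named were the members, the called genes of the lists, markers, and the 2 genes most correlated with each member, except where the text says otherwise. Alternatives changed the added constant, scaling, filter, probe set, variance trend, terms, arrays in the fit and each replicate.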

Additional observations from a re-analysis of the deposited data

Results flagged for a closer look

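In lesions, Gpx4 moved one way in the male and the other way in both females. Its log2 difference, lesion minus adjacent liver, was -0.14 in the male with HCC, against 0.54 in the female with the nodule and 0.53 in the female with HCC. On the second Gpx4 probe set these differences were -0.5 in the male, 0.76 in the female with the nodule and 0.05 in the female with HCC. The difference between the sexes was not tested, and it rests on 1 male.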

How the results depend on the processing

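Between genotypes, 2 members were called as reported and in 9 other settings run. With the mean over all probe sets of a gene 1 was called, with Gpx4 at 1.39 (limma, adjusted p = 0.0552). Without the intensity trend, without the sex term and with all 10 arrays in the fit 0 were called, with adjusted p in limma of 0.193, 0.154 and 0.101 for Nox4 and 0.211, 0.101 and 0.177 for Gpx4. Leaving out 1 pool at a time, 0 to 0 were called; these fits also take the spread from all groups, which with no pool left out already called 0. Over all 17 alternatives Nox4 stayed at -3.2 to -2.75 and Gpx4 at 1.18 to 1.8. Females against males gave 1 called member under quantile normalization, Nox4 at -1.69 (limma, adjusted p = 0.00776), and 0 in every other setting run. In the other tested comparisons 0 members were called in any setting run. Without the replicate block, which pairs lesion and adjacent liver of a mouse, 0 members were called for HCC and 0 for all lesions, as with it; no sample was paired by a number in the labels. The young pools have no such pairing beyond sex. The cause of each lost call was not tested. Counts over all genes moved by more than 1.5 times: 0 to 635 against 160 for genotype, 1 to 105 against 30 for sex, 0 to 24 against 9 for HCC and 0 to 47 against 1 for lesions. Centring arrays on their 75th percentile took the share of higher calls to 71% against 48.8% for genotype and to 53.9% against 66.9% in the nodule, and the genotype median of all genes to 0.1 against -0.05. Shares of the few calls for HCC (100% against 77.8%) and lesions (66.7% against 100%) moved as well. In the settings that were chosen after seeing the data, which used untransformed means or all 10 arrays for sex, the members called were the same as reported.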
